A study of Mus musculus with 5 samples.

Results

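The replication-dependent histone genes supply the histone proteins that package newly copied DNA, and their mRNA levels were examined in 6DT1 mouse mammary carcinoma cells in which *Arid4b* had been knocked down. Members were taken by symbol from the platform annotation. A gene was included if its symbol started with H2ac, H2bc, H3c or H4c followed by a digit, or was one of *H1f1* to *H1f5*, and if it had a probe set annotated to no other gene. Of 19938 genes with such a probe set, 26 were members, comprising 4 linker histone H1 genes, 4 H2A genes, 9 H2B genes, 3 H3 genes and 6 H4 genes. In RefSeq (GRCm38.p6) 64 genes bore such symbols, of which 5 were H1, 19 H2A, 16 H2B, 12 H3 and 12 H4 genes, so that H2A and H3 were the classes least covered. Each member had a single probe set of its own. Probe sets annotated to several histone genes were kept apart and are described after the members.

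Expression was compared between 5 cultures of 6DT1 cells on Affymetrix Mouse Gene 1.0 ST arrays, 1 array each. The *Arid4b* knockdown cohort was formed by the line with hairpin 3 and the line with hairpin 4, both transduced with lentiviral shRNA against *Arid4b* and selected with 10 µg/ml puromycin. The control cohort was formed by the line with hairpin 5, which carried an *Arid4b* hairpin and the same selection but kept its ARID4B protein, the selected line with a scrambled shRNA, and 6DT1 cells that had been neither transduced nor selected. Per the labels, ARID4B densitometry relative to the scrambled line was 0.19 with hairpin 3 and 0.15 with hairpin 4, against 1.02 with hairpin 5, 1.00 with the scrambled shRNA and 1.09 in untransduced cells. Every transduced line was a pool of stable clones from 1 parental tumor cell line, and each line was arrayed once, so the tests rest on the spread between lines, part of which may be technical. *Arid4b* mRNA, the target of the hairpins, had a log2 expression of 6.88 with hairpin 3 and 7.35 with hairpin 4, against 8.24, 8.34 and 8.36 in the hairpin 5, scrambled and untransduced lines (log2 fold change -1.20 with a standard error of 0.15, and adjusted p = 0.217 by limma).

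Array medians lay between 6.24 and 6.35 log2 units, and the hairpin 3 array was the highest in median and had the smallest SD over all probe sets, 2.25 against 2.29 to 2.30 on the others. The luminal keratins *Krt8* and *Krt18* were high on all 5 arrays, at 11.81 to 12.26 and 11.57 to 11.71. The epithelial adhesion genes *Epcam*, at 5.61 to 5.75, and *Cdh1*, at 6.05 to 6.16, lay below the median of every array, unlike the keratins. None of the 7 mammary epithelial, 5 leukocyte and 6 fibroblast and endothelial markers measured passed an unadjusted p under 0.05 in limma. Means ran from 4.64 to 6.26 over the leukocyte markers and from 4.04 to 7.49 over the fibroblast and endothelial markers. Of the latter, *Col1a1* (7.49) and *Col1a2* (7.12) lay above the median of every array.

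Replication-dependent histone genes are clustered, lack introns and are transcribed mainly while DNA is replicated. Their mRNAs end in a stem-loop in place of a poly(A) tail, and the stem-loop binding protein SLBP governs their processing, translation and decay. Cyclin E with CDK2 acts on NPAT, a coactivator held at the histone gene clusters, to switch on their transcription in S phase. H2A, H2B, H3 and H4 form the nucleosome core, and H1 binds the linker DNA between cores. ARID4B is a subunit of the SIN3A histone deacetylase complex.

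Because the members are transcribed from a few clusters and share promoter elements by class, the bases just before their starts are shown for the members on which the results below turn. Promoter sequences from RefSeq (GRCm38.p6) matched 22 of the 26 members, 20 on chromosome 13 and 2 on chromosome 3. The 250 bases before each start were searched for TATAAA on the sense strand, and on both strands for CCAAT, for the octamer ATTTGCAT, which binds the factor Oct-1 in H2B promoters, and for the H1 box AAACACA. No matches overlapped each other in any member. The last 120 bases before the start follow for the H1, H2A and H2B genes with the largest decreases, for *H2bc14*, the H2B gene with the highest signal, and for *H2bc22*, which hardly differed between cohorts. Matches are in capitals.
*H1f5* (chr13:21780626-21780745, minus strand): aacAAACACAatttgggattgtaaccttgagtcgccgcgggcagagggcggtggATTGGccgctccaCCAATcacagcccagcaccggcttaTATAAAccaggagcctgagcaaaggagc
*H2ac4* (chr13:23750968-23751087, plus strand): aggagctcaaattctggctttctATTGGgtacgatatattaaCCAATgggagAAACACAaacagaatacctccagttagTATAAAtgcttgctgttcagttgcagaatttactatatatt
*H2bc3* (chr13:23746614-23746733, plus strand): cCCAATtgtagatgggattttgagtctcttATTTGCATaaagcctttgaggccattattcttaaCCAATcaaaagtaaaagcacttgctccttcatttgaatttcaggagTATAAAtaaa
*H2bc14* (chr13:21721924-21722043, plus strand): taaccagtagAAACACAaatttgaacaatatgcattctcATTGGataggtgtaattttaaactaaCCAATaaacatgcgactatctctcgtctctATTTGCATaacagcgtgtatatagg
*H2bc22* (chr13:21787368-21787487, plus strand): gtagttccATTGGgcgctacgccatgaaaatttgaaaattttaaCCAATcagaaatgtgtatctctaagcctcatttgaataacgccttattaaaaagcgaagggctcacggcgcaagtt
These stretches differed in what they held. *H2bc3* and *H2bc14* carried the octamer, which *H2bc22* lacked, and *H1f5* and *H2ac4* both had an H1 box, CCAAT boxes and a TATA box.

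For H3 and H4, the stretches are those of *H3c4*, the member with the smallest p, of *H4c4*, the member with the highest signal, and of *H4c6*, the H4 gene with the largest decrease.
*H3c4* (chr13:23575643-23575762, plus strand): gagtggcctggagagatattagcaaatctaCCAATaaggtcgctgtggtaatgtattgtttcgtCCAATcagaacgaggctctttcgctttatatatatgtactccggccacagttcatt
*H4c4* (chr13:23581448-23581567, plus strand): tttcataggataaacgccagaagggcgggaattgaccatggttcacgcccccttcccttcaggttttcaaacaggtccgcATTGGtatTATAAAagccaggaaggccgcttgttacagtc
*H4c6* (chr13:23551669-23551788, minus strand): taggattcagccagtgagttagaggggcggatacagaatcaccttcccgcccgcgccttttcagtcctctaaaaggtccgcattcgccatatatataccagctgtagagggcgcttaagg
In *H4c6* no match lay within the 120 bases shown.

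Over the 22 members, the TATA letters were found in 12 (54.5%, against 7.59% of 32851 promoters of all genes), and CCAAT in 18 (81.8%, against 33.9%). CCAAT was present in all 4 H1, all 4 H2A and all 7 H2B promoters, in 1 of 2 H3 promoters and in 2 of 5 H4 promoters. The octamer was found in 8 members (36.4%, against 1.60% of all promoters), namely 3 of 4 H2A and 5 of 7 H2B genes and no H1, H3 or H4 gene. The H1 box was found in 7 members (31.8%, against 6.25%), of which 3 were H1, 2 H2A and 2 H2B genes. The divergent pairs *H2ac8* and *H2bc8*, and *H2bc1* and *H2ac1*, share 179 and 220 of the searched bases, so their matches are not independent. The 8 members with an octamer had a median log2 fold change of -0.46 and 5 of them were lower, while the 14 without had -0.36 and 6 were lower. With and without the other letters the medians were -0.43 and -0.34 for TATAAA, -0.39 and -0.46 for CCAAT, and -0.30 and -0.41 for the H1 box. The matches describe the letters in these windows and say nothing of binding.

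Most histone genes had negative log2 fold changes, of which a part passed the test. Of 26 members, 24 had a negative log2 fold change (knockdown minus control), 12 were lower, 0 were higher and 14 did not pass the threshold of the study, an unadjusted p under 0.05, in limma. The 12 were 46.2% of the members, where 7.61% of all 19938 genes were lower and 4.34% were higher. At an adjusted p under 0.05 from limma, 0% of all genes were called, and the smallest adjusted p of a member was 0.219, for *H3c4*. The median log2 fold change of the members was -0.36, against 0.033 over all genes. Both knockdown lines lay below all 3 control lines for 16 members (61.5%, where 13.5% of all genes did so) and above them for 0 (13.9% of all genes). Because RNA came from whole cultures, fewer cells in S phase and less histone mRNA per cell cannot be told apart. The count of 12 fell to 2 in an unmoderated equal-variance test, where 4.19% of all genes were lower. It fell to 3 without hairpin 5 (3.89% of all genes), 3 without the untransduced cells (5.07%) and 6 without the scrambled line (8.0%). With hairpin 3 as the only knockdown line the median of the members was -0.23, and with hairpin 4 as the only one -0.45. In addition, these genes are close copies of each other, and how far the probes of a member also bound its copies was not tested. Signals of different probe sets also depend on their probes, so a higher signal does not rank one gene's RNA over another's.

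**Figure D1:**
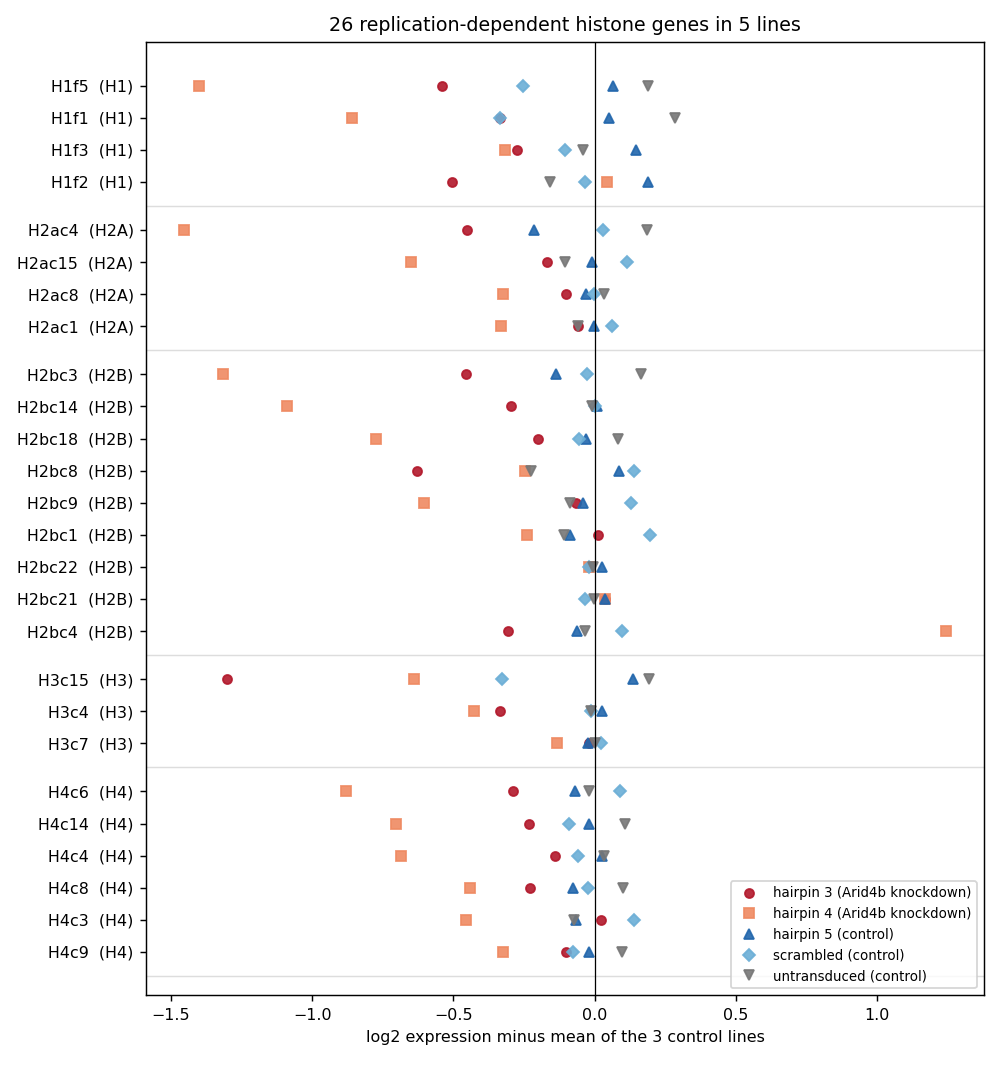
Log2 expression of the 26 histone genes in each line minus the mean of the 3 control lines (x axis, log2 units), grouped by class down the page; red and orange points are the knockdown lines, blue and grey points the control lines. The red and orange points lie left of all control points in 16 genes, and the orange point of *H2bc4* alone lies far to the right, at 1.24.

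Of the 4 linker histone H1 genes, 2 were lower, and the class median was -0.45. *H1f5*, the one with the highest signal, had a log2 expression of 10.54 with hairpin 3 and 9.68 with hairpin 4, against 11.14 with hairpin 5, 10.82 with the scrambled shRNA and 11.27 in untransduced cells. Both knockdown lines were below every control line, and hairpin 4 was the lower. The log2 fold change was -0.97 (standard error 0.30, adjusted p = 0.353 from limma), or 51.0% of the control level on the linear scale. *H1f3* was at 6.45 with hairpin 3 and 6.41 with hairpin 4, against 6.87, 6.62 and 6.68 with hairpin 5, the scrambled shRNA and no transduction. Its knockdown lines were close together and below all controls, and the log2 fold change was -0.30 (standard error 0.088, adjusted p = 0.351 from limma).

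The other H1 genes did not pass the test. *H1f1* was at 8.30 and 7.78 with hairpins 3 and 4, against 8.69, 8.30 and 8.93 in the hairpin 5, scrambled and untransduced lines. Hairpin 3 and the scrambled line thus had the same value, and the cohorts met there (log2 fold change -0.60, standard error 0.25, adjusted p = 0.448 from limma). *H1f2* was at 8.86 and 9.41 with hairpins 3 and 4, against 9.55, 9.33 and 9.20 in the hairpin 5, scrambled and untransduced lines, so that hairpin 3 was lowest of the 5 lines while hairpin 4 lay within the range of the controls (log2 fold change -0.23, standard error 0.20).

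Among the 4 H2A genes, 2 were lower and 3 had both knockdown lines below all controls. *H2ac4* was at 6.18 with hairpin 3 and 5.18 with hairpin 4, against 6.42, 6.67 and 6.82 with hairpin 5, the scrambled shRNA and no transduction. The hairpin 4 line was a full log2 unit below the hairpin 3 line, the widest drop between them among the members, and the log2 fold change was -0.95 (standard error 0.33, adjusted p = 0.383 from limma). *H2ac15*, with the highest signal of the H2A members, was at 10.90 and 10.42 with hairpins 3 and 4, against 11.06, 11.19 and 10.96 in the hairpin 5, scrambled and untransduced lines. The cohorts did not overlap, yet the difference did not pass the test (log2 fold change -0.41, standard error 0.16, unadjusted p = 0.0596 from limma). *H2ac8* had the lowest signal of the members, at 4.11 and 3.89 with hairpins 3 and 4 against 4.18, 4.21 and 4.25 in the hairpin 5, scrambled and untransduced lines, and with control lines so close it was lower by a small step (log2 fold change -0.21, standard error 0.079, adjusted p = 0.412 from limma).

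*H2ac1*, which encodes an H2A known from the testis, was at 7.99 with hairpin 3 and 7.72 with hairpin 4, against 8.05, 8.12 and 7.99 in the hairpin 5, scrambled and untransduced lines. Hairpin 3 equalled the untransduced cells, and the gene did not pass (log2 fold change -0.20, standard error 0.097).

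Of the 9 H2B genes 3 were lower and 6 did not pass, and their fold changes lay on both sides of 0 with a class median of -0.34. *H2bc3* was at 9.00 with hairpin 3 and 8.14 with hairpin 4, against 9.32, 9.43 and 9.62 with hairpin 5, the scrambled shRNA and no transduction (log2 fold change -0.89, standard error 0.28, adjusted p = 0.358 from limma). *H2bc14* was at 10.11 and 9.31 with hairpins 3 and 4, against 10.41, 10.40 and 10.39 in the hairpin 5, scrambled and untransduced lines. Its 3 control lines lay within 0.020 of each other, and the difference was -0.69 log2 units (standard error 0.24, adjusted p = 0.391 from limma). *H2bc18* followed with a log2 fold change of -0.49 (8.33 and 7.76 in the knockdown lines, 8.47 to 8.61 in the control lines). In all 3 of these genes both knockdown lines were below every control and hairpin 4 was the lower.

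In *H2bc8*, *H2bc9* and *H2bc1* the knockdown lines parted. *H2bc8* was at 7.50 with hairpin 3 and 7.89 with hairpin 4, against 8.22, 8.28 and 7.91 in the hairpin 5, scrambled and untransduced lines, so that hairpin 4 lay just under the lowest control (log2 fold change -0.44, unadjusted p = 0.0549 from limma). *H2bc9* was at 9.72 with hairpin 3 and 9.18 with hairpin 4, against 9.70 to 9.92 in the control lines. The testis H2B gene *H2bc1* was at 7.21 with hairpin 3 and 6.95 with hairpin 4, against 7.09 to 7.39 in the control lines. In both genes hairpin 4 alone was below all controls. *H2bc22* and *H2bc21* hardly varied, with log2 fold changes of -0.021 and 0.039. In each of them both knockdown arrays and 1 control array held an equal value. *H2bc22* was at 6.36 in both knockdown lines, against 6.41, 6.36 and 6.38 in the hairpin 5, scrambled and untransduced lines. *H2bc21* was at 5.54 in both knockdown lines, against 5.54, 5.47 and 5.50 in the hairpin 5, scrambled and untransduced lines.

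*H2bc4* was the exception among the members. Its log2 expression was 7.36 with hairpin 3 and 8.91 with hairpin 4, against 7.60, 7.76 and 7.63 in the hairpin 5, scrambled and untransduced lines. Hairpin 3 was below and hairpin 4 above every control, a gap of 1.55 between the knockdown lines. The log2 fold change was 0.47 with a standard error of equal size (0.47, adjusted p = 0.610 from limma). Without the hairpin 4 line it was -0.31 and passed as lower, and without the hairpin 3 line it passed as higher.

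**Figure D2:**
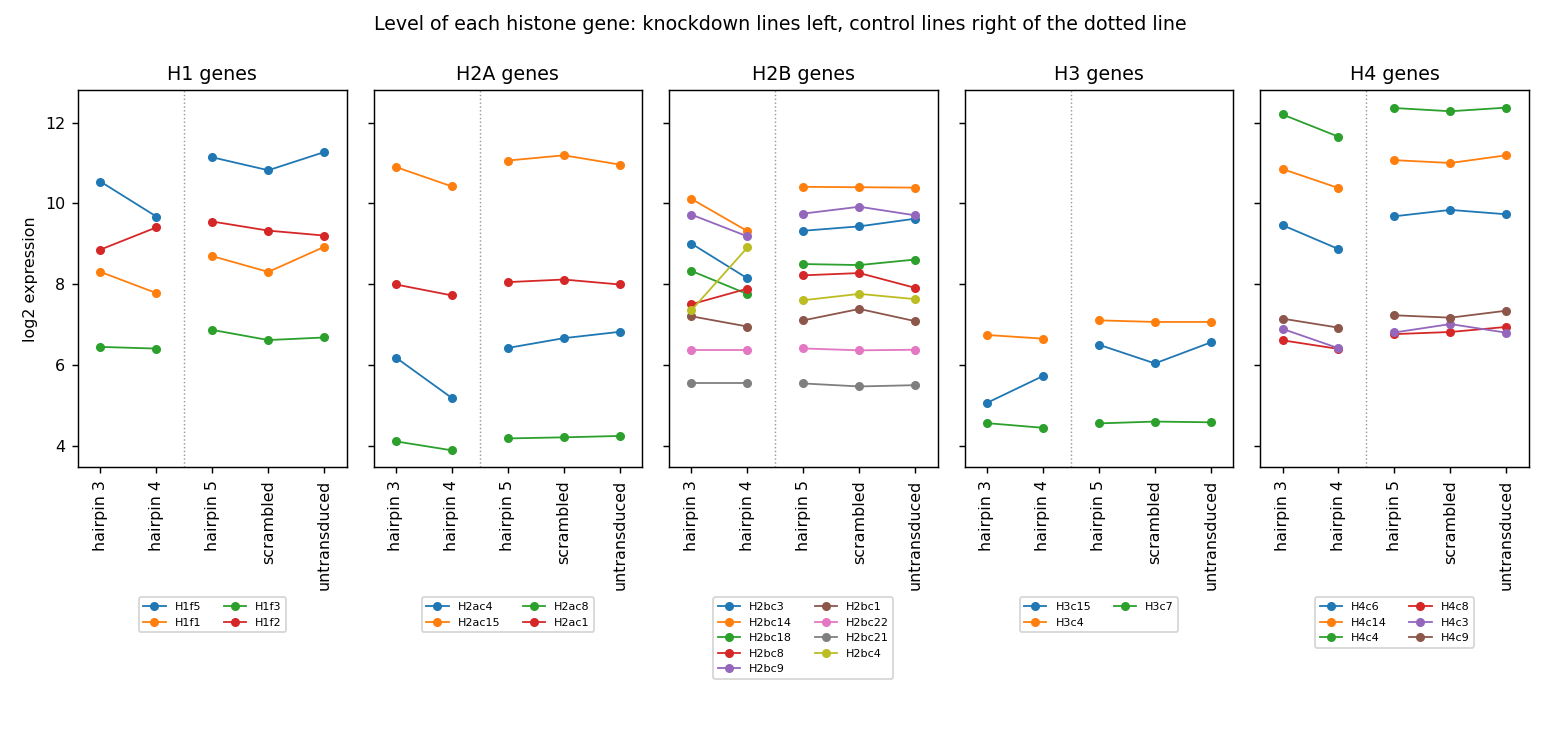
Log2 expression (y axis) of every member in the 5 lines (x axis), 1 panel per histone class, with hairpins 3 and 4 left of the dotted line and the 3 control lines right of it. *H4c4*, at 11.65 to 12.37, had the highest signal, and most lines of points step down from hairpin 3 to hairpin 4, with *H2bc4*, *H3c15*, *H1f2* and *H2bc8* stepping up.

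Only 3 H3 genes had a probe set of their own, and 2 were lower. *H3c15* was at 5.06 with hairpin 3 and 5.73 with hairpin 4, against 6.50, 6.04 and 6.56 with hairpin 5, the scrambled shRNA and no transduction. Here hairpin 3 was the lower of the knockdown lines, and the log2 fold change, -0.97, was the most negative of the members (standard error 0.27, adjusted p = 0.335 from limma). *H3c4* was at 6.74 and 6.65 with hairpins 3 and 4, against 7.11, 7.07 and 7.07 in the hairpin 5, scrambled and untransduced lines. Both cohorts were tight, with a range of 0.040 over the control lines, and the log2 fold change was -0.38 (standard error 0.049, adjusted p = 0.219 from limma). *H3c4* was lower under 12 of 12 alternatives, the only member for which this held. *H3c7* had a low signal, at 4.56 with hairpin 3 and 4.45 with hairpin 4 against 4.56, 4.60 and 4.58 in the hairpin 5, scrambled and untransduced lines, and did not pass (log2 fold change -0.076).

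All 6 H4 genes had negative fold changes, 3 were lower, and 5 had both knockdown lines below all controls. The replication-dependent H4 genes encode the same protein. *H4c4* had the highest signal of the members, at 12.20 with hairpin 3 and 11.65 with hairpin 4, against 12.36, 12.28 and 12.37 with hairpin 5, the scrambled shRNA and no transduction. The cohorts did not overlap, with most of the distance in hairpin 4, and the difference of -0.41 log2 units did not pass (standard error 0.17, unadjusted p = 0.0667 from limma). *H4c14* was at 10.85 and 10.38 with hairpins 3 and 4, against 11.07, 11.00 and 11.19 in the hairpin 5, scrambled and untransduced lines (log2 fold change -0.47, standard error 0.16, adjusted p = 0.381 from limma). *H4c6* was at 9.46 and 8.87 with hairpins 3 and 4, against 9.68, 9.84 and 9.73 in the same controls, and had the largest decrease of the class (log2 fold change -0.58, standard error 0.19, adjusted p = 0.366 from limma).

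*H4c8* changed by less but more evenly, at 6.61 and 6.40 with hairpins 3 and 4 against 6.77 to 6.94 in the control lines (log2 fold change -0.34, standard error 0.093, adjusted p = 0.336 from limma), and it was lower under 11 of 12 alternatives. *H4c9*, at 7.15 with hairpin 3 and 6.92 with hairpin 4 against 7.23, 7.17 and 7.35 in the hairpin 5, scrambled and untransduced lines, did not overlap its controls either, with a log2 fold change of -0.21 that did not pass. *H4c3* was at 6.90 with hairpin 3 and 6.42 with hairpin 4, against 6.81, 7.01 and 6.80 in the hairpin 5, scrambled and untransduced lines, so that hairpin 3 lay among the controls (log2 fold change -0.22, standard error 0.17).

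Class medians were close to each other, at -0.45 for H1, -0.31 for H2A, -0.34 for H2B, -0.38 for H3 and -0.37 for H4, and differences between classes were not tested. Differences from the control mean were larger in the hairpin 4 line, which had the lower ARID4B protein and the higher *Arid4b* mRNA of the knockdown lines. Relative to the control mean, the median member was at -0.23 with hairpin 3 and -0.45 with hairpin 4, against -0.014, -0.017 and -0.0042 in the hairpin 5, scrambled and untransduced lines. Members below all 3 controls numbered 18 with hairpin 3, where 26.6% of all genes were, and 22 with hairpin 4, where 27.7% of all genes were. Above all 3 controls were 0 members with hairpin 3 and 1 with hairpin 4, against 9350 and 5131 of all 19938 genes. The part of this array-wide difference in the smaller values of hairpin 3 was not tested. Hairpin 4 was the lower of the knockdown lines in 20 of 26 members (median difference -0.26), and in 58.9% of all genes (median difference -0.045). Across the 26 members, which share arrays and in part sequence, the differences of the 2 knockdown lines from the control mean had a Pearson r of 0.25 and a Spearman rho of 0.39. *H1f2*, *H2bc4*, *H2bc8* and *H3c15* were lower with hairpin 3 than with hairpin 4.

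The 3 control lines lay close together, with a median range of 0.19 over the members and a widest of 0.62, in *H1f1*. That range exceeded the size of the fold change in 5 members. Untransduced cells, which had met neither virus nor puromycin, were above both selected controls in 11 members and below both in 8, with a median difference of -0.0064 and a range of -0.34 to 0.43. Among the controls, histone genes thus lay on both sides of each other whether or not the cells had been selected. The 13 members with the higher mean signals had a median log2 fold change of -0.47 and the 13 with the lower signals -0.21, with 6 lower in each, and across members Spearman's rho of mean signal and fold change was -0.42 (Pearson r -0.32).

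Many histone genes are so alike that their probe sets were annotated to several of them. There were 26 such probe sets, 2 of which repeated the values of another, and most named 11 to 20 genes. Medians over the H3 probe sets were 12.48 with hairpin 3 and 11.90 with hairpin 4, against 12.59, 12.64 and 12.44 with hairpin 5, the scrambled shRNA and no transduction. In these shared H3 probe sets hairpin 4 was far below every other line, while hairpin 3 lay within the range of the controls. Both knockdown lines were below all controls in 0 of 10 H3 and 0 of 7 H2B probe sets, but in 6 of 6 H4, 2 of 2 H2A and the 1 set shared by an H1 and an H2B gene, which makes 9 of 26, where 12.9% of all 35556 probe sets did so.

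By class, median log2 fold changes were -0.35 for H3, -0.20 for H2B, -0.41 for H4 and -0.36 for H2A. In hairpin 3 the median difference from the control mean was -0.066 for H3, -0.0028 for H2B, -0.14 for H4 and -0.13 for H2A, while in hairpin 4 it was -0.63, -0.41, -0.68 and -0.59. The small values of hairpin 3 beside those of hairpin 4 held in every class. Among controls, the scrambled line was above the control mean for shared H2B sets (median difference 0.19) and untransduced cells below it (-0.16). One H4 set, annotated to 2 genes, stood apart from the rest at 6.84 with hairpin 3 and 6.72 with hairpin 4, against 7.67, 7.44 and 7.71 in the hairpin 5, scrambled and untransduced lines. Probe sets that overlap in sequence are not independent of each other.

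**Figure D3:**
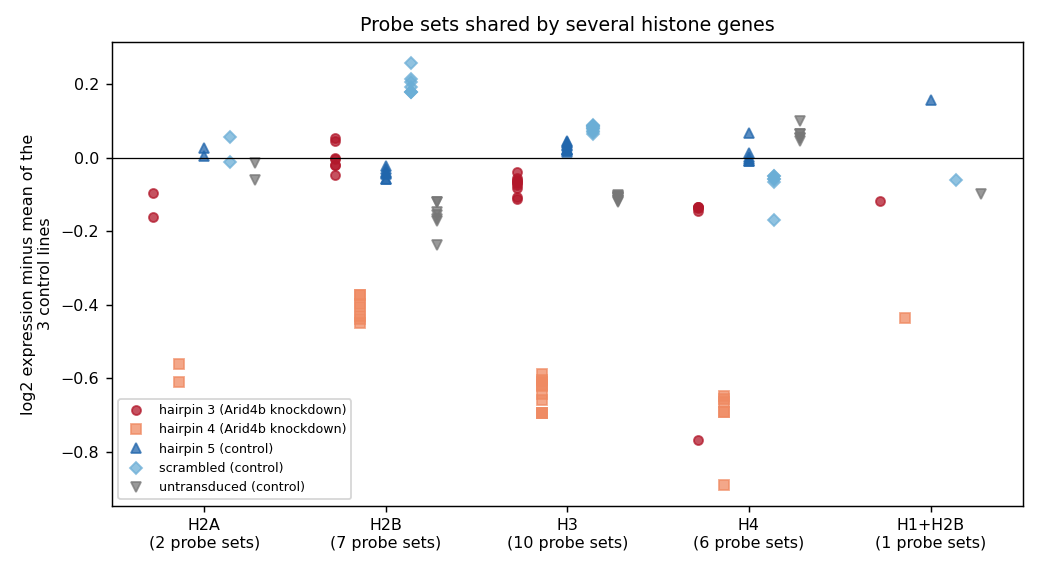
Log2 expression in each line minus the mean of the 3 control lines (y axis) for 26 probe sets annotated to several histone genes, by class (x axis); each point is a probe set in a line. Hairpin 4 lies below every control in all classes, while hairpin 3 lies between the controls for H2B and H3.

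Some histone genes fell outside the symbols of the rule and are given after their values were seen. *H2aw*, an H2A gene, was lower, at 9.20 with hairpin 3 and 8.93 with hairpin 4 against 9.71, 9.46 and 9.64 in the hairpin 5, scrambled and untransduced lines (log2 fold change -0.54), and the H4 gene *H4f16* was lower too (-0.36). *H1f6*, a linker histone of the testis, and *H2bu2* did not pass, with log2 fold changes of 0.12 and -0.043.

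Many of the genes that switch on, process and carry histones were lower as well. Of 36 genes listed for histone gene expression, mRNA processing and histone assembly, 34 were measured, 17 were lower, 0 were higher and 17 did not pass, with a median of -0.42. Of all genes, 7.61% were lower. The 17 became 7 in the unmoderated test (4.19% of all genes lower), 7 without hairpin 5 (3.89%) and 11 without the untransduced cells (5.07%). With hairpin 3 as the only knockdown line the median was -0.38, and with hairpin 4 as the only one -0.43. Among the 17 for expression and mRNA processing 7 were lower (median -0.36), and among the 17 chaperones and assembly factors 10 were lower (median -0.65). In the list for expression and mRNA processing the median difference from the control mean was -0.43 with hairpin 3 and -0.39 with hairpin 4. Gene by gene, however, hairpin 4 was the lower in 10 of these 17, with a median difference of -0.059 from hairpin 3. Over 7 chaperones of histone variants the medians were -0.16 with hairpin 3 and -0.076 with hairpin 4. There hairpin 4 was the lower in 3 of 7 genes. Upstream of the clusters, *Ccne2*, which encodes cyclin E2, was at 6.56 with hairpin 3 and 6.77 with hairpin 4, against 8.33, 7.95 and 8.74 in the hairpin 5, scrambled and untransduced lines (log2 fold change -1.68, standard error 0.25). The cyclin E1 gene *Ccne1*, at 10.08 and 9.50 with hairpins 3 and 4 against 10.18, 9.84 and 10.36 in the same controls, did not pass. Its log2 fold change was -0.33 (unadjusted p = 0.223 from limma), and hairpin 3 lay among the controls. *Npat* was at 8.37 and 8.38 with hairpins 3 and 4, against 8.75, 8.72 and 8.94 in the same controls (log2 fold change -0.43, standard error 0.083). For *Npat* the knockdown lines were nearly equal, and its part in the differences of the histone genes was not tested.

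*Slbp*, the stem-loop binding protein gene, was at 8.54 with hairpin 3 and 8.42 with hairpin 4, against 8.94, 8.78 and 9.30 with hairpin 5, the scrambled shRNA and no transduction (log2 fold change -0.53, standard error 0.17). Among carriers of histone proteins, *Nasp*, a chaperone of H3 and H4 and of H1, was at 6.94 and 6.69 with hairpins 3 and 4, against 7.94, 7.53 and 8.11 in the same controls (log2 fold change -1.04, standard error 0.20). *Mms22l*, which acts with TONSL at damaged replication forks, was at 7.14 and 6.88 with hairpins 3 and 4, against 8.12, 7.56 and 8.38 in the same controls (difference -1.01 log2 units, standard error 0.27). *Hirip3*, which encodes a histone-binding protein, was at 6.72 and 6.73 with hairpins 3 and 4, against 7.74, 7.35 and 7.64 in the same controls (difference -0.85 log2 units, standard error 0.13). In *Slbp*, *Nasp*, *Mms22l* and *Hirip3* both knockdown lines were below every control line. All but *Slbp* were picked for their fold changes between the same cohorts.

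**Figure D4:**
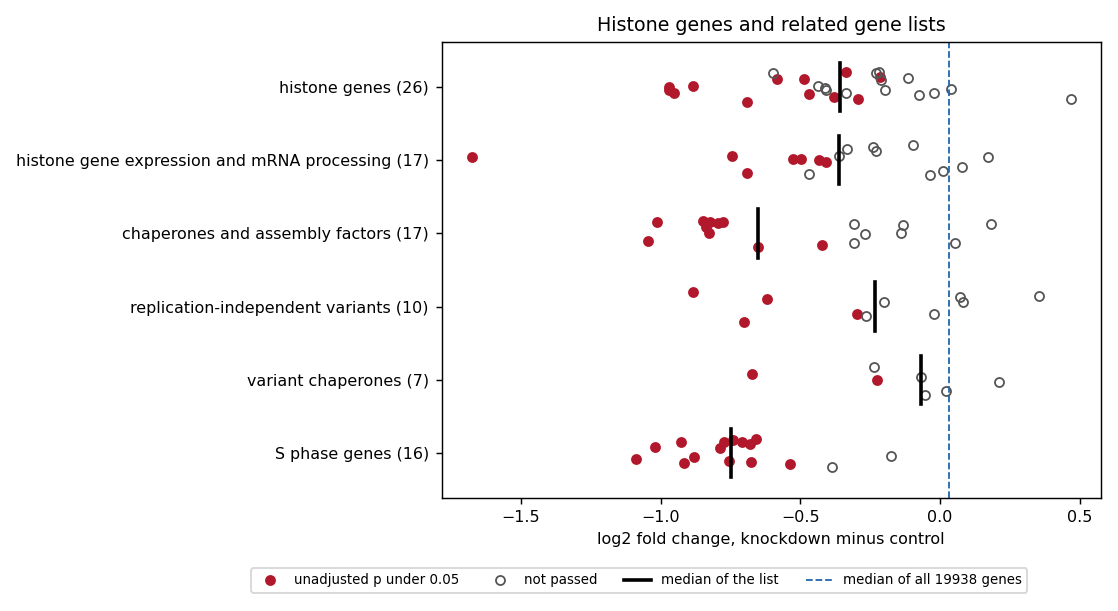
Log2 fold change, knockdown minus control (x axis), of each histone gene and of each measured gene of 5 related lists (rows, with the number of genes); filled points had an unadjusted p under 0.05 in limma, the black bar is the median of the list and the dashed line the median of all genes. Every filled point lies left of 0, and medians run from -0.75 for S phase genes to -0.068 for variant chaperones.

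Replication-independent variants, which replace the core histones outside S phase or at particular sites, were examined next. Of 13, 10 were measured, 4 were lower, 0 were higher and the median was -0.23, where 7.61% of all genes were lower and 4.34% higher. The 4 became 2 in the unmoderated test (4.19% of all genes lower) and 2 without the untransduced cells (5.07%). With hairpin 3 as the only knockdown line the list median was -0.13. *Cenpa*, the histone H3 of centromeres, was at 10.42 with hairpin 3 and 9.73 with hairpin 4, against 11.05, 10.89 and 10.95 in the hairpin 5, scrambled and untransduced lines (log2 fold change -0.89, standard error 0.22). *H2az1*, a variant found at promoters, was at 10.88 and 10.45 with hairpins 3 and 4, against 11.40, 11.16 and 11.55 in the same controls (log2 fold change -0.70). In both genes, which were picked for their fold changes between these cohorts, the knockdown lines were below every control and hairpin 4 was the lower. *H2ax*, whose protein is phosphorylated at DNA breaks, was at 8.51 and 8.09 with hairpins 3 and 4, against 9.09, 8.66 and 9.01 in the same controls (-0.62). *Macroh2a1*, the large variant of silenced chromatin, was at 10.63 and 10.56 with hairpins 3 and 4, against 11.07, 10.79 and 10.81 in the same controls (-0.30). The variants that were lower were thus a centromeric, a promoter, a repair and a silencing variant. In the other direction, *H2aj* was at 7.33 and 7.77 with hairpins 3 and 4, against 7.12 to 7.31 in the control lines, and did not pass (log2 fold change 0.35, unadjusted p = 0.0694 from limma). Of 7 chaperones of these variants, 2 were lower, *Anp32e*, which removes H2A.Z (-0.67), and *Ubn1*, of the HIRA complex (-0.23), and their median was -0.068.

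Because histone mRNA follows DNA replication, S phase genes were set beside the histones. Of 17 listed, 16 were measured, 14 were lower, 0 were higher and the median was -0.75, where 7.61% of all genes were lower and 4.34% higher. The 14 became 3 in the unmoderated test (4.19% of all genes lower), 3 without hairpin 5 (3.89%) and 5 without the untransduced cells (5.07%). With hairpin 3 as the only knockdown line the list median was -0.47. The ribonucleotide reductase subunit gene *Rrm2* (-1.09), the thymidylate synthase gene *Tyms* (-1.02), the replication factor gene *Gins1* (-0.93) and the thymidine kinase gene *Tk1* (-0.92) had the most negative log2 fold changes of the list. *Rrm2* was at 10.80 with hairpin 3 and 9.96 with hairpin 4, against 11.52, 11.20 and 11.66 in the hairpin 5, scrambled and untransduced lines. As in 20 of 26 histone genes, hairpin 4 was the lower. *Tyms* was at 8.86 and 8.22 with hairpins 3 and 4, against 9.77, 9.21 and 9.71 in the same controls. *Gins1* was at 7.11 and 6.53 with hairpins 3 and 4, against 7.71, 7.43 and 8.11 in the same controls. *Tk1* was at 9.58 and 8.69 with hairpins 3 and 4, against 10.19, 9.75 and 10.22 in the same controls. The knockdown lines were below every control in all 4 genes, which were picked for their fold changes between the same cohorts. Over the whole list this held for 15 of 16 genes, where 13.5% of all genes did so.

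The control lines, however, were ordered differently in these lists. The median S phase gene was at -0.47 with hairpin 3 and -0.97 with hairpin 4 relative to the control mean, against 0.060, -0.24 and 0.16 in the hairpin 5, scrambled and untransduced lines. In the scrambled line 16 of 16 S phase genes and 32 of 34 supply and processing genes were below the control mean. So were 15 of 26 histone genes, near the share of all genes (9489 of 19938). The scrambled line thus had low S phase genes and a median histone gene near the middle of the controls, but the histone classes differed. In that line 4 of 4 H1 genes were below the control mean (median -0.18), against 1 of 4 H2A genes (median 0.045). *H1f5* and *H3c15*, which had the most negative fold changes of the members, were at -0.25 and -0.33 there. S phase genes moved with the histone genes between the cohorts, and their part in the differences of the histone genes was not tested.

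**Figure D5:**
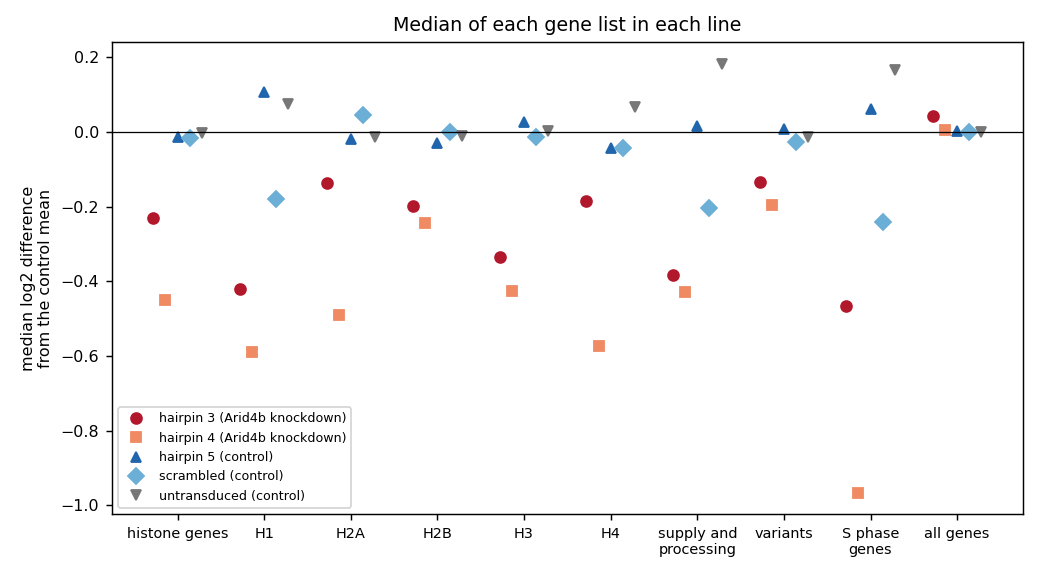
Median log2 difference from the mean of the 3 control lines (y axis) for the histone genes, each class, the related lists and all genes (x axis), with 1 point per line. Hairpin 4 is lowest in every list plotted other than all genes. The scrambled line is at -0.24 for S phase genes, at -0.017 for histone genes and at -0.18 for the H1 class.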

How the data were processed

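Total RNA from 5 lines was labelled with a whole-transcript kit, and each line was hybridised to 1 Affymetrix Mouse Gene 1.0 ST array. Log2 expression values were deposited by the authors, who normalized them in Partek, and RMA is named in the processing notes. Versions were not given in the sources used here. RMA places all arrays on a common scale, so a change shared by most genes would not be seen, and low values are compressed. The table holds 35556 probe sets, of which 21789 had 1 symbol in the platform annotation, 1621 several and 12146 none. For each of the 19938 genes with a probe set of 1 symbol, the one with the highest mean was used (999 genes had more than 1), with no filter on low values.

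Linear models were fitted in R 4.3.3 with limma 3.58.1 (lmFit, then eBayes, for 2 knockdown against 3 control lines, with 3 residual and 1.58 prior degrees of freedom), with Benjamini-Hochberg adjustment over all genes. A gene is called lower or higher where its unadjusted p was under 0.05, which is the study's own threshold. The fit was first tested on simulated data. The members and lists were chosen with earlier results of these data known, so their counts are read against the share of all genes, and no list was given a p. Values in all 5 lines are given for the 2 lowest, the 2 highest and the member with the highest signal in each class, for up to 4 genes of each other list with the largest fold changes past the threshold, and for *Arid4b*, *Slbp* and *Npat*. The remaining members are given by their values or ranges. Alternatives were an unmoderated equal-variance test (the study names ANOVA), a trend and robust prior, subtraction of array medians, a further quantile normalization, leaving out the 1 in 3 genes with the lowest means, averaging the probe sets of a gene, a term for puromycin selection, and omission of each line in turn. The number of arrays limits the precision. Tables and figures were made with Python 3.11.15, pandas 2.3.3 and matplotlib 3.10.9.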

Additional observations from a re-analysis of the deposited data

How the results depend on the processing

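At the unadjusted threshold 12 of 26 histone genes were lower, where 7.61% of all genes were. With the share of all genes lower in brackets, the count was 16 with a trend and robust prior (7.37%) and 18 with array medians subtracted (10.2%). It was 11 with quantile normalization (6.68%), 15 of 23 with the lowest 1 in 3 genes left out (11.3%) and 12 with probe sets averaged (7.57%). It was 2 (*H3c4* and *H4c8*) in the unmoderated equal-variance test and 3 with puromycin as a covariate, which here equals leaving out the untransduced cells. Without hairpin 5 it was 3, and without the scrambled line 6. The count of higher genes was 0 throughout, apart from 0 to 1 when a line was left out (*H2bc4* without hairpin 3), and *H2bc4* was at 1.24 without hairpin 3 and turned to -0.31 without hairpin 4. The median of the histone genes was -0.36, and -0.40 with array medians subtracted, -0.41 without the lowest 1 in 3 genes, -0.38 with puromycin as a covariate and -0.45 to -0.23 when a line was left out. Class medians stayed below 0 in every alternative. Of all genes, 4.19% were lower in the unmoderated test, 5.07% with puromycin as a covariate, 3.89% without hairpin 5 and 8.0% without the scrambled line.

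Genes lower in each list were counted in the unmoderated test, with puromycin as a covariate and over the control lines left out. They numbered 7, 11 and 7 to 19 in the supply and processing list (main 17) and 2, 2 and 2 to 4 in the variants (main 4). Among S phase genes they numbered 3, 5 and 3 to 15 (main 14). The shares of all genes lower were 4.19%, 5.07% and 3.89% to 8.0%. Over all genes 2383 passed (1517 lower, 866 higher). This became 1422 (835 lower) in the unmoderated test, 1519 (1011 lower, 508 higher) with puromycin as a covariate, and 1184 to 6887 (776 to 1986 lower, 408 to 4901 higher) when a line was left out, where a single knockdown line was assumed to vary like the controls. Genes called higher numbered 509 with array medians subtracted and 1300 with quantile normalization, or 20.0% and 49.4% of calls, against 36.3% as deposited. Adjusted over all genes, 0 genes passed, 3 in the unmoderated test, 4 without the lowest 1 in 3 genes and 1266 without hairpin 4. No paired analysis was possible because replicate numbers were given in accession order and the labels pair no lines. The causes of these changes were not tested.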

Other observations

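The genes whose pattern over the 5 arrays was most like the median histone gene, among 3704 genes outside the members with a range of at least 0.5 log2 units, were *Gpr39* (Pearson r 0.999), *Sgo2a* (0.999), *Cep55* (0.998), *Stil* (0.998) and *Nrm* (0.997). With 5 arrays and this many genes, values of this size are a description and carry no p. *Sgo2a* protects the cohesion of centromeres, *Cep55* works at the last step of cell division and *Stil* in the duplication of centrioles. *Cep55* had a log2 expression of 8.10 with hairpin 3 and 6.98 with hairpin 4, against 8.98, 8.91 and 8.99 in the hairpin 5, scrambled and untransduced lines. *Sgo2a* was at 9.55 and 8.90 with hairpins 3 and 4, against 10.12, 10.18 and 10.15 in the same controls. In both genes hairpin 4 was lower than hairpin 3 and the control lines lay close together. This is the order of the median histone gene, by which these genes were picked, so it is no separate result.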
